A study of Mus musculus with 6 samples.

Results

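The genes described here are 31 components of the basement membrane and its close partners, measured by bulk RNA-seq in CD34hi and CD34lo fibroblasts of the pubertal mouse mammary gland. They were chosen by name: 6 collagen IV chains, 10 laminin chains, *Ntn4*, 2 nidogens, the heparan sulfate proteoglycans *Hspg2* and *Agrn*, 3 collagens associated with basement membranes, *Fras1*, *Frem1* and *Frem2*, the SPARC-related genes *Smoc1*, *Smoc2* and *Sparc*, and *Dag1*. This choice, like that of the related lists below, was made with earlier results of these data known. All 31 were present in the table of 27179 genes, and all 31 were among the 15219 genes that passed the filter on low counts. Both groups were Pdgfrα+ cells depleted of cells positive for CD31, CD45, TER-119 or CD24 and sorted from female FVB/N mice at 6 weeks of age, and they differed in the surface level of CD34. The labels name no transgene or treatment for either group. Each of 3 pools of 2 mice gave 1 library of each group, so that there were 3 CD34hi and 3 CD34lo libraries, and a pool, not a mouse, is the replicate. The comparison asks which basement membrane genes differ in RNA level between these fibroblast populations.

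A basement membrane is a thin sheet of matrix that lies beneath epithelia and around endothelium, nerve, muscle and fat cells, and in the mammary gland it separates the ducts from the stroma. Laminin trimers of an alpha, a beta and a gamma chain polymerise on the cell surface through integrins and dystroglycan, and a covalently linked network of collagen IV gives the sheet its tensile strength. Nidogens and the proteoglycan perlecan connect the networks, and stromal cells secrete a share of these proteins in many organs.

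The libraries held between 28764779 and 52402410 counts on genes. A count of 3, taken as the smallest amount a library could show, was worth between 0.0553 and 0.108 CPM (TMM-normalised counts scaled to a common library total), a floor that covers counting error only. *Cd34* was higher in CD34hi fibroblasts, at 2571 ± 75.2 CPM (SD, n = 3) against 634 ± 158. *Pdgfra*, whose product was used for the sort, was higher in CD34lo fibroblasts, at 1256 ± 197 against 754 ± 149 CPM. The summed level of 4 fibroblast markers was between 20012 and 24372 CPM in CD34hi and between 30865 and 35375 in CD34lo libraries. All 5 pericyte and smooth muscle markers were higher in CD34lo fibroblasts, with a sum of 103 to 141 CPM against 10.5 to 13.3, most of it from *Acta2*, *Myh11* and *Notch3*. The pericyte markers *Rgs5* (1.37 to 2.67 against 0.783 to 0.828 CPM) and *Mcam* (4.82 to 8.82 against 0.794 to 1.68 CPM) did not overlap between the groups either. Of the 5 endothelial markers, *Pecam1*, *Cdh5* and *Emcn* were higher in CD34lo and *Kdr* in CD34hi fibroblasts. *Vwf* did not pass, but every CD34lo library lay above every CD34hi library (9.81 to 22.7 against 2.64 to 9.27 CPM). The endothelial sums were 51.5 to 96.0 CPM in CD34hi and 35.3 to 59.9 in CD34lo libraries. *Kdr* alone gave 33.9 to 70.9 CPM of the CD34hi and 4.57 to 8.16 CPM of the CD34lo sums. None of 6 epithelial markers passed the test, and their sums were 32.9 to 39.7 and 28.3 to 39.1 CPM. The marker sum of keratinocytes was higher in CD34hi libraries (14.3 to 19.9 against 3.60 to 7.12 CPM), and both of its markers were higher there. Those of macrophages, muscle and adipocytes were above the CD34hi mean in CD34lo libraries. The sums of macrophages and muscle were no higher than 5.16 CPM and that of adipocytes no higher than 1.81 CPM in any library, with *Lep* and *Myog* at 0 counts in 4 and 5 of the 6. The part of these other cells in the results below was not tested.

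Most of the basement membrane genes were higher in CD34lo fibroblasts. By edgeR's quasi-likelihood test at a threshold of 0.05, with p-values adjusted by Benjamini-Hochberg across the whole table, 24 of the 31 differed, or 77.4%, beside 35.6% of all tested genes. Of these, 17 were higher in CD34lo fibroblasts, a direction found for 18.7% of all tested genes, and 7 were higher in CD34hi fibroblasts, beside 16.9%. The median log2 fold change, given throughout as CD34hi vs CD34lo so that a negative value means a higher level in CD34lo fibroblasts, was -0.91 over the 31 genes and -0.0064 over all tested genes. The 3 CPM values of each group did not overlap for 26 of the 31 genes, with CD34lo above for 19 and CD34hi above for 7, beside 50.1% of all tested genes. A difference of at least 2 on the log2 scale that also passed the test was found for 12 of the 31, beside 9.63% of all tested genes. With the mouse pool as a block, which 40.5% of all tested genes passed, 19 of the 31 were higher in CD34lo and 7 in CD34hi fibroblasts. Without pool 2, the number of the 31 higher in CD34lo fibroblasts was 11 rather than 17, and without pool 1 it was 12. Over all tested genes, 2841 of 15219 were higher in CD34lo fibroblasts. That number was 1977 of 15550 without pool 2 and 1860 of 15076 without pool 1. In bulk libraries, fewer cells with a transcript and less of it per cell cannot be told apart.

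**Figure D1:**
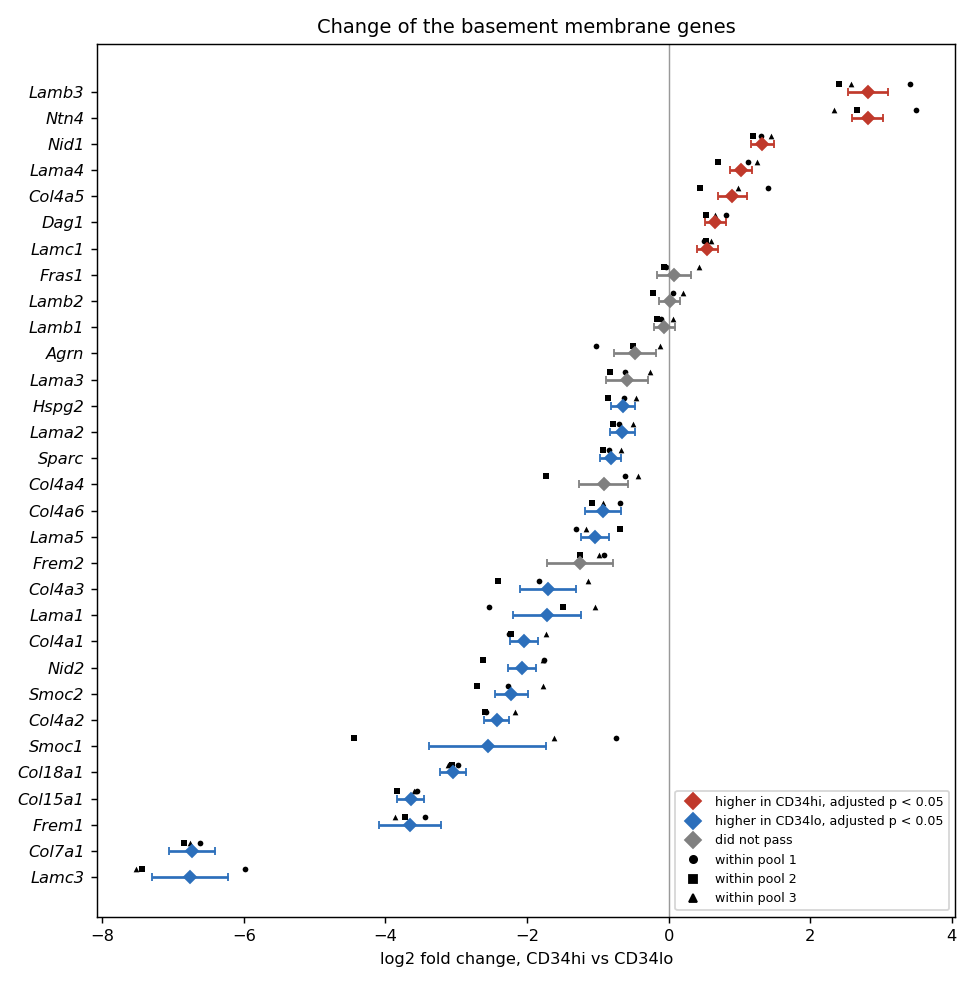
Log2 fold change (CD34hi vs CD34lo, x axis) of each of the 31 genes, ordered by size, as a diamond with its standard error (n = 3 libraries per group), beside the log2 ratio within each of the 3 mouse pools as black symbols. *Lamc3* and *Col7a1* lie farthest to the left, at -6.76 and -6.73, *Lamb3* and *Ntn4* farthest to the right, at 2.82 and 2.81, and the 7 grey genes did not pass the test.

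The direction held pool by pool for most of these genes. CD34lo was the higher library in all 3 pools for 21 of the 31 genes and CD34hi in all 3 for 7, which left *Lamb1*, *Lamb2* and *Fras1* with mixed signs. Groups that do not overlap have the same direction in every pool, and 50.1% of all tested genes did not overlap. The CD34hi library of pool 3 had the highest level among the CD34hi libraries for 20 of the 31 genes. The shares of all tested genes that belong beside these pool counts were not computed.

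Divided by gene length (CPM per kb of summed exon length), so that genes can be set side by side, the 31 genes together reached 3489, 3466 and 4051 CPM per kb in the CD34hi and 5682, 5766 and 5682 in the CD34lo libraries. Every CD34lo library lay above every CD34hi library, and the exact two-sided permutation p was 0.1, the smallest value that 3 libraries against 3 can give. As a share of the TMM-adjusted library total, not of the raw counts, the genes took 1.91% ± 0.219 (SD, n = 3) in CD34hi and 2.85% ± 0.0604 in CD34lo fibroblasts. *Sparc* had the highest level per kb in both groups. In CD34hi fibroblasts *Nid1* (891 ± 114 CPM per kb) and *Lamc1* (333 ± 32.9) came next, and the library values of each did not overlap with those of its neighbours. In CD34lo fibroblasts the order after *Sparc* was *Col4a1* (652 ± 20.9), *Col15a1* (446 ± 39.9), *Col4a2* (387 ± 10.3) and *Nid1* (357 ± 21.5). Of these neighbours, the library values of *Col4a2* and *Nid1* overlapped and the others did not. *Col15a1* ranked 14 and *Col4a2* 10 of the 31 in CD34hi fibroblasts.

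**Figure D2:**
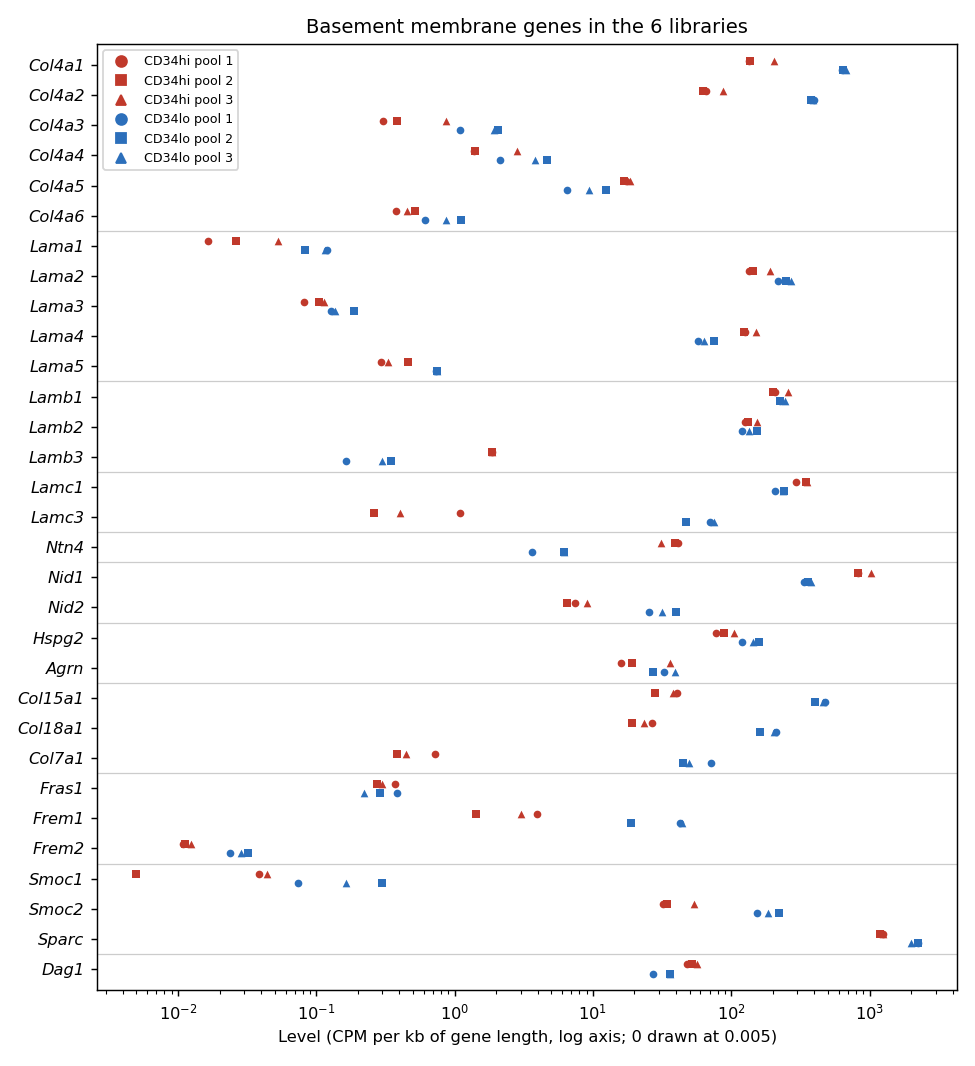
Level of each gene in each of the 6 libraries (CPM per kb of gene length, log axis), grouped by family, in red for CD34hi and blue for CD34lo, with 1 symbol shape per mouse pool. The families span levels from under 0.1 CPM per kb for *Frem2* to 2166 for *Sparc* in CD34lo fibroblasts, and the red and blue symbols of *Lamc3*, *Col7a1* and *Col15a1* lie far apart.

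The main collagen IV chains were several-fold higher in CD34lo fibroblasts. *Col4a1* and *Col4a2* encode the chains of the collagen IV trimer found in nearly all basement membranes. *Col4a1* (gene 12826, GRCm38 chromosome 8, 11198423 to 11312826) had 883, 912 and 1352 CPM in the CD34hi libraries of pools 1, 2 and 3 and 4207, 4263 and 4469 CPM in the CD34lo libraries. *Col4a2* (gene 12827, chromosome 8, 11312829 to 11449287) had 421, 401 and 563 CPM in CD34hi and 2531, 2413 and 2525 CPM in CD34lo libraries. Each CD34lo library exceeded each CD34hi library for both genes, and among the CD34hi libraries pool 3 was the highest. The log2 fold change was -2.04 ± 0.20 (SE, adjusted p = 9.30e-05) for *Col4a1* and -2.43 ± 0.17 (SE, adjusted p = 1.82e-05) for *Col4a2*. The ratio of *Col4a1* to *Col4a2* per kb was 2.19 ± 0.149 (SD, n = 3) in CD34hi and 1.68 ± 0.0596 in CD34lo fibroblasts, without overlap between the groups (exact permutation p = 0.1).

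The other 4 collagen IV genes, which encode the chains of tissue-restricted trimers such as those of kidney, lung and smooth muscle, were lower in level and did not move as 1 group. *Col4a5* was the exception in direction, with 113, 109 and 121 CPM in CD34hi against 42.6, 80.4 and 61.3 CPM in CD34lo libraries. Its log2 fold change was 0.90 ± 0.21 (SE, adjusted p = 0.00915), and without pool 3 it was 0.86 (adjusted p = 0.0747). *Col4a6* had 2.53, 3.45 and 3.02 CPM in CD34hi and 4.09, 7.37 and 5.79 CPM in CD34lo libraries, a log2 fold change of -0.93 ± 0.25 (SE, adjusted p = 0.0202). Neither gene overlapped between the groups, and the call of *Col4a6* did not hold without pool 2 or pool 3, nor without the CD34hi library of pool 1 or the CD34lo library of pool 2 or 3 (adjusted p between 0.0524 and 0.0990).

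*Col4a3* had 2.62, 3.31 and 7.45 CPM in CD34hi and 9.44, 17.9 and 16.5 CPM in CD34lo libraries, with a log2 fold change of -1.70 ± 0.40 (SE, adjusted p = 0.0101), or -1.36 without pool 2 (adjusted p = 0.0866) and -2.29 without the CD34hi library of pool 3. *Col4a4* had 10.8, 11 and 21.9 CPM in CD34hi and 16.6, 36.6 and 29.6 CPM in CD34lo libraries, and the groups overlapped. Its log2 fold change of -0.91 ± 0.35 (SE, adjusted p = 0.0697) did not pass. With the mouse pool as a block, *Col4a4* was higher in CD34lo fibroblasts (log2 fold change -0.92, adjusted p = 0.00963), and it also passed in DESeq2 (adjusted p = 0.0204) but not in limma-voom (adjusted p = 0.0811). With a pool or library left out, its log2 fold change lay between -1.33 (without the CD34hi library of pool 3, adjusted p = 0.0129) and -0.49 (without pool 2, adjusted p = 0.418). *Col4a5* made up 7.17% ± 1.11 (SD, n = 3) of collagen IV transcripts per kb in CD34hi and 0.896% ± 0.280 in CD34lo fibroblasts, and *Col4a2* 28.8% ± 1.12 and 36.7% ± 0.983.

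The collagen IV genes lie in 3 head-to-head pairs that are transcribed away from each other. In the deposited coordinates, 2 bases separate the starts of *Col4a1* and *Col4a2*, 71 bases those of *Col4a4* and *Col4a3* on chromosome 1, and 1342 bases those of *Col4a6* and *Col4a5* on chromosome X. Both genes of the *Col4a1* and *Col4a2* pair were higher in CD34lo fibroblasts, whereas in the *Col4a6* and *Col4a5* pair the signs were opposite. The ratio of *Col4a5* to *Col4a6* per kb was 39.6 ± 6.75 in CD34hi and 10.9 ± 0.260 in CD34lo fibroblasts. The sequences between or before these starts are shown from the RefSeq promoter windows (GRCm38.p6), which held an entry for 21 of the 31 genes, in 5′ to 3′ direction on the strand of the gene named first and outside annotated exons. Capitals mark GC boxes (GGGCGG) and CCAAT boxes (CCAAT) on either strand.
Col4a4: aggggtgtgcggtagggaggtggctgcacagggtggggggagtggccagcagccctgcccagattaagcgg
Col4a6: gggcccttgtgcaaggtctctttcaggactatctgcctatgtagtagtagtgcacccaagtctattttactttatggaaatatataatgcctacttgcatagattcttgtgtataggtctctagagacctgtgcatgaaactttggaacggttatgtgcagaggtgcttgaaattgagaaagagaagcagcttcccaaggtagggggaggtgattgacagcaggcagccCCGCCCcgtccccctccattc
Col4a5: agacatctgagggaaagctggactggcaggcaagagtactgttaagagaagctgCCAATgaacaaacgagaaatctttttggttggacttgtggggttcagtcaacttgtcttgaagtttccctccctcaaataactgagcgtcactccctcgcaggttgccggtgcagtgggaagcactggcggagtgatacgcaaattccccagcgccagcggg

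The first run (chr1:82586850-82586920, minus strand) is the whole gap between *Col4a4* and *Col4a3*, has 69.0% G and C and holds neither motif. The *Col4a6* run (chrX:141474077-141474326, minus strand) ends at the base before the gene and holds 1 GC box, a motif found in 32.7% of all 32851 RefSeq windows of that length. The *Col4a5* run (chrX:141475169-141475384, plus strand) ends 35 bases before the deposited gene start and holds 1 CCAAT box, which 30.5% of windows of that length hold. The facing starts of *Col4a6* and *Col4a5* hold different motifs, which describes these letters only.

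Among the laminin alpha chains, *Lama2* and *Lama4* carried nearly all transcripts, and they moved in opposite directions. *Lama2*, the alpha chain of muscle and nerve basement membranes, had 1298, 1404 and 1854 CPM in CD34hi and 2116, 2429 and 2627 CPM in CD34lo libraries. *Lama4*, the alpha chain of vessel, fat and nerve basement membranes, had 759, 744 and 913 CPM in CD34hi and 349, 457 and 386 CPM in CD34lo libraries. Neither gene overlapped between the groups. The log2 fold change was -0.65 ± 0.18 (SE, adjusted p = 0.0207) for *Lama2* and 1.02 ± 0.15 (SE, adjusted p = 0.00106) for *Lama4*. Per kb, *Lama2* made up 53.7% ± 2.14 (SD, n = 3) of laminin alpha transcripts in CD34hi and 78.7% ± 2.06 in CD34lo fibroblasts, and *Lama4* 46.1% ± 2.14 and 21.0% ± 2.05 (exact permutation p = 0.1 for each). The sum of the alpha chains was 290 ± 45.5 CPM per kb in CD34hi and 313 ± 31.7 in CD34lo fibroblasts (exact permutation p = 0.5), and the groups overlapped in that sum but not in the shares. The *Lama2* call did not hold without pool 1 or pool 2, nor without the CD34hi library of pool 1 or 2 or the CD34lo library of pool 3 (adjusted p between 0.0667 and 0.137).

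The alpha chains of epithelial laminins were present at low levels. *Lama5*, the widespread alpha chain of epithelia and vessels, had 3.35, 5.27 and 3.75 CPM in CD34hi and 8.39, 8.52 and 8.45 CPM in CD34lo libraries, a log2 fold change of -1.04 ± 0.20 (SE, adjusted p = 0.00380). *Lama1*, an alpha chain of early embryonic basement membranes, had 0.157, 0.248 and 0.507 CPM in CD34hi and 1.14, 0.791 and 1.09 CPM in CD34lo libraries. The groups did not overlap for either gene. The log2 fold change of *Lama1* was -1.72 ± 0.48 (SE, adjusted p = 0.0223). The *Lama1* call did not hold without pool 1 or pool 2, nor without the CD34hi library of pool 1 or 2 or the CD34lo library of pool 1 or 3 (adjusted p between 0.0589 and 0.166), and its log2 fold change was -1.27 without pool 1 and -2.32 without the CD34hi library of pool 3. *Lama3*, the alpha chain of hemidesmosomal laminin, had 0.850 to 1.17 CPM in CD34hi and 1.33 to 1.94 CPM in CD34lo libraries and did not pass (log2 fold change -0.59 ± 0.30 SE, adjusted p = 0.165).

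The main beta chains were close to equal in both populations. *Lamb1*, the common beta chain, had 1204, 1168 and 1476 CPM in CD34hi and 1293, 1305 and 1417 CPM in CD34lo libraries, and *Lamb2*, the beta chain of synapses, vessels and kidney, had 703, 747 and 869 and 672, 871 and 752 CPM. The groups overlapped for both genes. The log2 fold changes were -0.061 ± 0.15 (SE, adjusted p = 0.779) and 0.014 ± 0.15 (SE, adjusted p = 0.953). *Lamb3*, the beta chain of epithelial hemidesmosomal laminin, was higher in CD34hi fibroblasts, with 7.54, 7.62 and 7.52 CPM against 0.664, 1.40 and 1.22 CPM. The 3 CD34hi libraries lay within 0.1 CPM of each other and above every CD34lo library, and the log2 fold change was 2.82 ± 0.28 (SE, adjusted p = 1.01e-04). *Lamb3* made up 0.521% of laminin beta transcripts per kb in CD34hi and 0.0726% in CD34lo fibroblasts. The keratinocyte marker sum moved the same way as *Lamb3*, and the epithelial marker sums of the groups overlapped. The part of such cells in the *Lamb3* level was not tested.

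*Lamc3* had the largest log2 fold change of the 31 genes in the edgeR fit, close to that of *Col7a1*. It encodes a gamma chain of restricted distribution, and *Lamc1* the gamma chain of most laminins. *Lamc3* (gene 23928, chromosome 2, 31887281 to 31946535) had 6.48, 1.55 and 2.38 CPM in CD34hi and 413, 277 and 446 CPM in CD34lo libraries. All CD34lo libraries were far above all CD34hi libraries, and the CD34hi library of pool 1 was the highest of its group. The fitted levels were 108-fold apart, a log2 fold change of -6.76 ± 0.54 (SE, adjusted p = 3.16e-05), or -7.55 without the CD34hi library of pool 1. *Lamc1* had 2250, 2645 and 2715 CPM in CD34hi and 1585, 1835 and 1796 CPM in CD34lo libraries, without overlap. Its log2 fold change of 0.55 ± 0.15 (SE, adjusted p = 0.0206) did not hold when any 1 pool was left out, nor without the CD34hi library of pool 2 or the CD34lo library of pool 1 (adjusted p between 0.0603 and 0.105).

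In the gamma chains as a family, *Lamc3* made up 0.186% ± 0.160 (SD, n = 3) of transcripts per kb in CD34hi and 21.9% ± 4.87 in CD34lo fibroblasts (exact permutation p = 0.1). The sum of both gamma chains was 333 ± 32.5 CPM per kb in CD34hi and 292 ± 17.1 in CD34lo fibroblasts (exact permutation p = 0.2). Of the 6091 exon bases of *Lamc3* in GENCODE, 382 are shared with *Gm13441* on the opposite strand, a symbol not found among the 27179 genes. Since the library kit does not mark strand, the gene of origin of reads from those bases cannot be told. The same holds for 563 of the 9967 GENCODE exon bases of *Col4a3* and 631 of the 16338 of *Lama2*. Shorter overlaps of this kind were 197 bases in *Lama3*, 159 in *Fras1*, 143 in *Nid1*, 43 in *Col4a2* and 14 in *Col15a1*.

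*Ntn4* encodes netrin-4, a laminin-related protein that binds laminin gamma chains and can open laminin networks, and it went the other way from *Lamc3*. It had 100.3, 94.6 and 75.4 CPM in CD34hi and 8.82, 14.9 and 14.9 CPM in CD34lo libraries. Each CD34hi library was well above each CD34lo library. The log2 fold change was 2.81 ± 0.22 (SE, adjusted p = 3.10e-05), and the within-pool log2 ratios were 3.50, 2.66 and 2.33.

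**Figure D3:**
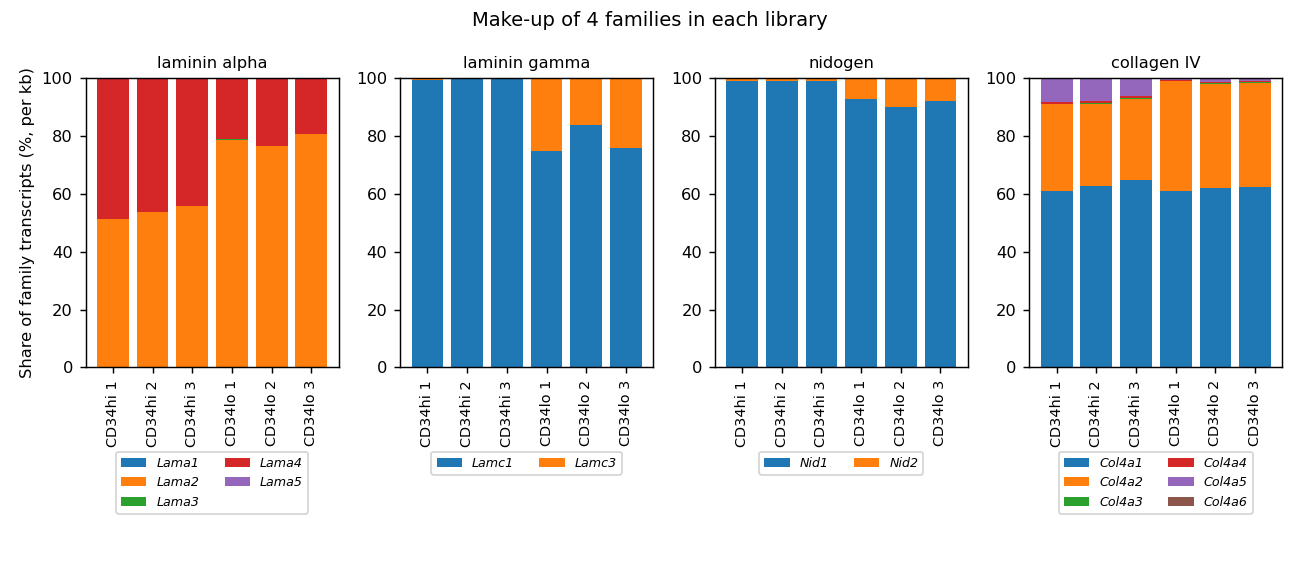
Share of each gene in the transcripts of its family (%, levels per kb of gene length) in the 6 libraries, with 1 bar per library for laminin alpha chains, laminin gamma chains, nidogens and collagen IV. *Lama4* fills 44.1% to 48.4% of the alpha bars in CD34hi and 19.0% to 23.1% in CD34lo libraries, *Lamc3* appears in the CD34lo bars, *Nid2* widens in the CD34lo bars and *Col4a5* narrows, while *Lama1*, *Lama3* and *Lama5* are too low to see.

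The nidogens, which link laminin to collagen IV, also moved in opposite directions. *Nid1* had 5002, 4972 and 6181 CPM in CD34hi and 2020, 2171 and 2278 CPM in CD34lo libraries, a log2 fold change of 1.32 ± 0.16 (SE, adjusted p = 3.26e-04). *Nid2* had 36.4, 31.7 and 44.7 CPM in CD34hi and 124, 196 and 154 CPM in CD34lo libraries, a log2 fold change of -2.07 ± 0.20 (SE, adjusted p = 8.06e-05). There was no overlap between the groups for either gene. The ratio of *Nid1* to *Nid2* per kb was 117 ± 8.90 (SD, n = 3) in CD34hi and 11.4 ± 2.19 in CD34lo fibroblasts, and the summed nidogen level was 898 ± 115 and 389 ± 26.0 CPM per kb (exact permutation p = 0.1 for each). *Nid2* shares 437 of its 5174 exon bases with *Rtraf* on the opposite strand, so its counts are uncertain by the reads from those bases. *Rtraf* itself was higher in CD34hi fibroblasts (log2 fold change 0.40, adjusted p = 0.0205).

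The heparan sulfate proteoglycans changed less. *Hspg2*, which encodes perlecan, had 1105, 1253 and 1475 CPM in CD34hi and 1705, 2257 and 2039 CPM in CD34lo libraries, without overlap. Its log2 fold change was -0.65 ± 0.17 (SE, adjusted p = 0.0178), and the call did not hold without pool 1 or 2 or without the CD34hi library of pool 1 or 2 (adjusted p between 0.0753 and 0.141). *Agrn*, which encodes agrin, the organiser of the neuromuscular synapse, had 119, 141 and 268 CPM in CD34hi and 242, 200 and 291 CPM in CD34lo libraries. The CD34hi library of pool 3 lay among the CD34lo libraries. The log2 fold change was -0.48 ± 0.29 (SE, adjusted p = 0.239) and did not pass, but with the mouse pool as a block it was -0.55 (adjusted p = 0.0266), and without that library it was -0.91 (adjusted p = 0.00702). Without the CD34hi library of pool 1 it was -0.23 (adjusted p = 0.592), and without pool 1 -0.24 (adjusted p = 0.649).

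The 3 associated collagens were all many-fold higher in CD34lo fibroblasts. *Col7a1*, the collagen of the anchoring fibrils that fasten epithelial basement membranes to the stroma, had 6.64, 3.53 and 4.12 CPM in CD34hi and 656, 411 and 453 CPM in CD34lo libraries. The fitted levels were 106-fold apart, a log2 fold change of -6.73 ± 0.32 (SE, adjusted p = 2.92e-06). The 3 within-pool log2 ratios lay close together, at -6.62, -6.84 and -6.76. *Col15a1*, a multiplexin collagen at the outer face of basement membranes, had 217, 150 and 203 CPM in CD34hi and 2536, 2133 and 2450 CPM in CD34lo libraries. Its log2 fold change was -3.64 ± 0.19 (SE, adjusted p = 4.87e-06). *Col18a1*, the multiplexin whose end is released as endostatin, had 155, 111 and 136 CPM in CD34hi and 1212, 930 and 1182 CPM in CD34lo libraries, with a log2 fold change of -3.05 ± 0.18 (SE, adjusted p = 7.86e-06). The groups did not overlap for any of the 3 genes. Together they reached 59.3 ± 10.5 CPM per kb (SD, n = 3) in CD34hi and 693 ± 77.8 in CD34lo fibroblasts, and the ratio of *Col15a1* to *Col18a1* per kb was 1.54 ± 0.0803 and 2.34 ± 0.133 (exact permutation p = 0.1 for each).

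Since all 3 of these genes were higher in CD34lo fibroblasts in every pool, the bases before their RefSeq starts are shown, each in 5′ to 3′ direction on the strand of the gene, from the same windows and with the same capitals (GC box and CCAAT box on either strand).
Col7a1: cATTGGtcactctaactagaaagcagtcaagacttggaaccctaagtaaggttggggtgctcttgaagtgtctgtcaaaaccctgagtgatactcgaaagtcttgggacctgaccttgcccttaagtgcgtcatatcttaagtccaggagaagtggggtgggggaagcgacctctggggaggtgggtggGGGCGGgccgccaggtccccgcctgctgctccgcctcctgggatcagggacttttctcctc
Col15a1: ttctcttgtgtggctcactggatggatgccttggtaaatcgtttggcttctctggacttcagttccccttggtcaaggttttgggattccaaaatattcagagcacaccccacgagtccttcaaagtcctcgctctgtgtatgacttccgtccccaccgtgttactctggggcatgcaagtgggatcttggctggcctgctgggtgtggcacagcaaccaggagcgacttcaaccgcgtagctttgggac
Col18a1: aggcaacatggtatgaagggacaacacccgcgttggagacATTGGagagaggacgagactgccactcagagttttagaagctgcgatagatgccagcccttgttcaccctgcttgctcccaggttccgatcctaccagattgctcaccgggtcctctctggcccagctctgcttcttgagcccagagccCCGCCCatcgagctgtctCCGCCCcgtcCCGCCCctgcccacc

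The *Col7a1* run (chr9:108953336-108953585, plus strand) holds 1 GC box and 1 CCAAT box, and the deposited start of *Col7a1* lies further on, at 108953745. The *Col18a1* run (chr10:77166549-77166780, minus strand) holds 3 GC boxes and 1 CCAAT box and ends 19 bases before the gene start. It was taken from that 1 of the 2 RefSeq windows of *Col18a1* which lies nearer to the deposited start. The *Col15a1* run (chr4:47207762-47208011, plus strand) holds neither, although *Col15a1* too was higher in CD34lo fibroblasts. Of all RefSeq windows of 250 bases, 32.7% hold a GC box and 33.8% a CCAAT box, and for runs as long as that of *Col18a1* the shares are 30.1% and 32.4%. A TATA box (TATAAA), which 12.4% of the windows of 250 bases hold, and a GLI site (GACCACCCA), which 0.225% hold, were in none of the 6 runs shown here on either strand.

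Of the Fras and Frem genes, whose products form a complex in the basement membranes of embryonic epithelia, *Frem1* differed. It had 38.0, 13.7 and 28.8 CPM in CD34hi and 412, 182 and 419 CPM in CD34lo libraries. The pool 2 library was the lowest of both groups, the groups did not overlap, and the log2 fold change was -3.65 ± 0.44 (SE, adjusted p = 2.87e-04). *Fras1* had 4.36 to 5.93 CPM in CD34hi and 3.50 to 6.09 CPM in CD34lo libraries, a log2 fold change of 0.077 ± 0.24 (SE, adjusted p = 0.832). *Frem2* stood at 0.134 to 0.154 and 0.295 to 0.396 CPM, near the floor, and did not pass (log2 fold change -1.25 ± 0.47 SE, adjusted p = 0.0657).

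All 3 SPARC-related genes were higher in CD34lo fibroblasts. *Sparc* encodes a collagen-binding matricellular protein. It had 2890, 2722 and 2866 CPM in CD34hi and 5164, 5183 and 4590 CPM in CD34lo libraries, with a log2 fold change of -0.82 ± 0.15 (SE, adjusted p = 0.00256) that did not pass without pool 1 (adjusted p = 0.0575). *Smoc2*, a SPARC-related modular calcium-binding protein, had 90.9, 96.8 and 153 CPM in CD34hi and 436, 630 and 521 CPM in CD34lo libraries. The groups did not overlap for either gene, and the log2 fold change of *Smoc2* was -2.22 ± 0.23 (SE, adjusted p = 1.34e-04). Its paralogue *Smoc1* rested on few reads, with 6, 0 and 7 counts in CD34hi and 14, 29 and 18 counts in CD34lo libraries. Its log2 fold change of -2.56 ± 0.83 (SE, adjusted p = 0.0407) fell short of the threshold in limma-voom and without any 1 pool or any 1 library other than the CD34lo library of pool 1 (adjusted p between 0.0517 and 0.196), and was -1.47 without pool 2.

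*Dag1*, which encodes dystroglycan, the cell-surface receptor that binds laminin, perlecan and agrin, was higher in CD34hi fibroblasts. It had 210, 228 and 251 CPM in CD34hi and 119, 158 and 159 CPM in CD34lo libraries, without overlap, and a log2 fold change of 0.66 ± 0.15 (SE, adjusted p = 0.00791).

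A list of 25 other genes covered proteins of basement membranes and matrix proteins at their interface, such as *Tnc*. Of these, 22 were tested, and most were higher in CD34lo fibroblasts. Of the 22, 14 were higher in CD34lo, 2 (*Papln* and *Crim1*) were higher in CD34hi fibroblasts and 6 did not pass. Called genes were 72.7% of the list, beside 35.6% of all tested genes (18.7% higher in CD34lo and 16.9% in CD34hi), and the median log2 fold change was -1.56 beside -0.0064. *Egflam*, which encodes the dystroglycan ligand pikachurin, had 15.1, 5.93 and 10.8 CPM in CD34hi and 273, 169 and 310 CPM in CD34lo libraries (log2 fold change -4.56 ± 0.37 SE, adjusted p = 3.49e-05). *Tnc*, tenascin C, had 13.3, 5.55 and 6.06 against 216, 99.2 and 164 CPM (-4.26 ± 0.41 SE, adjusted p = 8.93e-05). In both genes every CD34lo library exceeded every CD34hi library, and pool 2 gave the lowest value of each group. *Hmcn2*, a hemicentin, and *Matn2*, a matrilin, followed, with log2 fold changes of -3.00 ± 0.28 (SE, adjusted p = 7.44e-05) and -2.85 ± 0.16 (SE, adjusted p = 6.13e-06). *Vwf* stands in this list and among the endothelial markers.

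The listed receptors for basement membranes and collagens were divided. Of 20 listed genes, 19 were tested, 9 were higher in CD34lo, 5 were higher in CD34hi fibroblasts and 5 did not pass. Called genes were 73.7% of the list, beside 35.6% of all tested genes (18.7% higher in CD34lo and 16.9% in CD34hi), and the median log2 fold change was -0.53 beside -0.0064. *Itga8*, the integrin alpha chain that binds nephronectin, had 6.06, 4.53 and 5.27 CPM in CD34hi and 69.7, 73.7 and 90.9 CPM in CD34lo libraries (log2 fold change -3.88 ± 0.17 SE, adjusted p = 2.13e-06). The collagen-binding integrin chains differed in direction. *Itga2* had 26.9, 25.4 and 23.3 against 2.71, 6.01 and 3.15 CPM (2.69 ± 0.28 SE, adjusted p = 1.28e-04), and *Itga1* 4.0, 3.59 and 4.56 against 18.6, 15.5 and 21.4 CPM (-2.19 ± 0.18 SE, adjusted p = 3.22e-05). *Ddr2*, a receptor tyrosine kinase for collagen, had 1629, 1573 and 1608 CPM in CD34hi and 624, 714 and 661 CPM in CD34lo libraries (1.27 ± 0.13 SE, adjusted p = 1.19e-04). None of these 4 genes overlapped between the groups.

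The enzymes and chaperones that assemble, modify or degrade basement membranes changed in both directions. Of 32 genes, 31 were tested, 9 were higher in CD34hi, 7 were higher in CD34lo fibroblasts and 15 did not pass. Called genes were 51.6% of the list, beside 35.6% of all tested genes (18.7% higher in CD34lo and 16.9% in CD34hi), and the median log2 fold change was 0.12 beside -0.0064. Under upper-quartile normalisation 8 were higher in CD34hi and 10 in CD34lo. The number higher in CD34lo was 3 without pool 1, 4 without pool 2 and 4 without the CD34hi library of pool 2. Over all tested genes, these left-out fits gave 1860 of 15076, 1977 of 15550 and 2148 of 15804 higher in CD34lo. Under upper-quartile normalisation, 2284 of 15219 tested genes were higher in CD34hi and 3128 in CD34lo. *Hpse*, the heparanase that cuts heparan sulfate chains, had 91.2, 90.3 and 102 CPM in CD34hi and 16.8, 28.6 and 21.2 CPM in CD34lo libraries (log2 fold change 2.10 ± 0.19 SE, adjusted p = 5.77e-05). *Mmp3*, a matrix metalloproteinase, was higher in CD34lo fibroblasts (-1.71 ± 0.28 SE, adjusted p = 0.00152). *Loxl4*, of the lysyl oxidase family, and *Colgalt2*, a collagen galactosyltransferase, were higher in CD34hi fibroblasts, by 1.40 ± 0.29 (SE, adjusted p = 0.00570) and 1.39 ± 0.27 (SE, adjusted p = 0.00401) on the log2 scale.

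**Figure D4:**
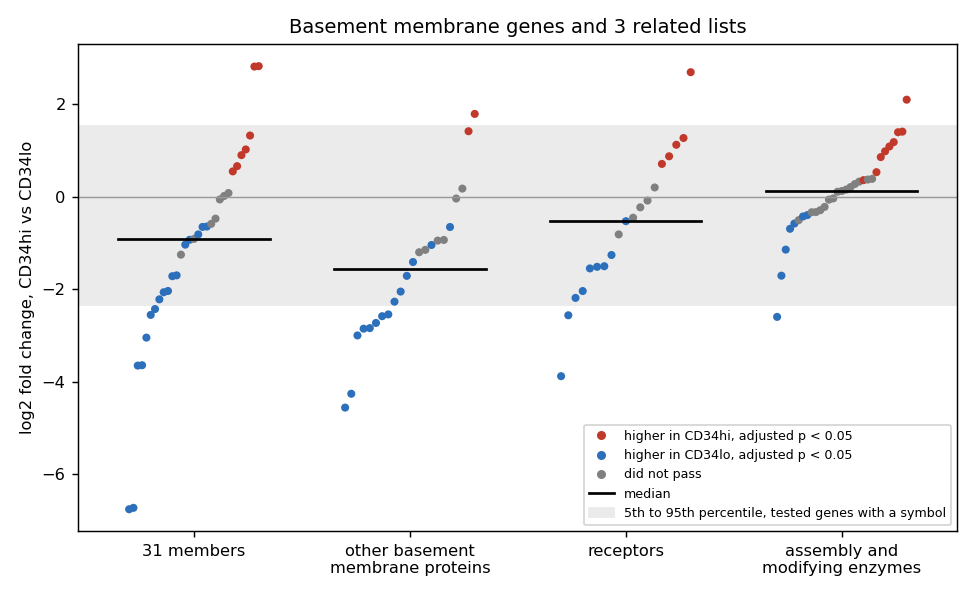
Log2 fold change (CD34hi vs CD34lo, y axis) of every tested gene among the 31 basement membrane genes and in the related lists. The lists are other basement membrane and interface proteins, receptors, and assembly and modifying enzymes. Each point is 1 gene and each black line the median of its list. The medians are -0.91, -1.56, -0.53 and 0.12, and the grey band runs from -2.34 to 1.53, the fold changes between which most tested genes with a symbol lie.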

How the data were processed

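Bulk RNA-seq was analysed for 3 CD34hi and 3 CD34lo libraries of sorted mammary fibroblasts. Reads had been aligned to the GRCm38/mm10 genome, and the deposited values are raw counts per gene that the authors obtained with Rsubread. Gene annotation, strand setting and treatment of multi-mapping reads are not given in the sources used here, and the TruSeq RNA v2 kit does not mark strand. Gene coordinates and lengths are those deposited, and symbols came from RefSeq (25275 of 27179 genes).

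Counts were filtered (filterByExpr), TMM-normalised and tested with edgeR 4.0.16 (R 4.3.3) by its quasi-likelihood test, with p-values of 15219 genes adjusted by Benjamini-Hochberg and a threshold of 0.05. A prior count of 2 was used for within-pool log2 ratios. Shares, sums and ratios were compared by exact two-sided permutation tests. The script was tested on simulated data. The alternatives were limma-voom (limma 3.58.1), DESeq2 1.42.0, RLE and upper-quartile normalisation, other filters on low counts, each pool or library left out, stricter thresholds, unscaled shares, and the mouse pool as a replicate block. Shares of beta and gamma chains and nidogens were added after seeing the data. The sums of single families and the ratios of gene pairs were not among the planned results either.

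Both libraries of a number came from the same pool of mice per the labels, and deviations of same-numbered libraries from their group means correlated across genes (Pearson's r of 0.279, 0.0844 and 0.243). Replicates differed beyond sampling noise (chi-square per degree of freedom at least 23.1), and the coefficient of variation was 19.7% (14.9% with the block).

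The 31 genes and the lists were chosen with earlier results of these data known. All 31 are named, as are, from each list, up to 4 genes with the largest absolute log2 fold change among those that passed with a mean log2 CPM of at least 3. *Papln*, *Crim1*, *Rtraf* and single marker genes fall outside this rule and were chosen after their values were seen. A further list of marker genes is not reported here.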

Additional observations from a re-analysis of the deposited data

How the results depend on the processing

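Of 524 recomputed values of single genes under 17 alternatives, 467 kept their direction and their side of the threshold, and 17 of the 31 genes did so in every alternative that gave a value. Another 37 no longer passed and 10 newly passed. The 10 that turned in sign belong to genes that never passed: *Lamb1* ranged from -0.17 to 0.012 and *Fras1* from -0.093 to 0.34 when a pool or library was left out, and *Lamb2* from -0.088 to 0.14, with -0.038 under upper-quartile normalisation and -0.00087 with at least 10 counts in every library. That filter gave no value for *Lama1*, *Frem2* and *Smoc1*. With the replicate block, 19 rather than 17 of the 31 genes were higher in CD34lo and 7 in CD34hi fibroblasts, 6161 rather than 5411 of all tested genes differed, and, apart from *Agrn* and *Col4a4*, the block changed no call among the 31. The number of all tested genes that differed ranged from 3468 (without pool 1) to 5236 when a pool or library was left out, was 3444 at an adjusted p under 0.01 and 2986 at a minimum log2 difference of 1. The number of the 31 genes higher in CD34lo fibroblasts ranged from 11 to 18 with a pool or library left out and was 11 at an adjusted p under 0.01. At that minimum difference, 4 of the 31 were higher in CD34hi fibroblasts, as were 3 receptors and 5 enzymes, and 3 enzymes were higher in CD34lo. Enzymes higher in CD34lo ranged from 3 to 8 with a pool or library left out and were 4 at an adjusted p under 0.01. Without length scaling, the share of *Lama2* differed by -20.4 and that of *Lama4* by 20.6 percentage points (CD34hi minus CD34lo), rather than -25.0 and 25.1. Upper-quartile normalisation gave a share of calls higher in CD34hi of 42.2% rather than 47.5% and a median over all genes of -0.059. The cause of these changes was not tested, except that leaving out libraries leaves fewer to compare. Genes under about 1 CPM (*Lama1*, *Frem2*, *Smoc1*) are limited by depth.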
